A study of Mus musculus with 4 samples.

Results

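The genes described here encode 10 cell surface and endosomal receptors that take up modified lipoproteins, polyanionic ligands and dead cells. They were chosen by name, with earlier results of these data known, from a list of scavenger and dead-cell uptake receptors. These genes are Cd36, Msr1, Marco, Scarb1, Scarb2, Axl, Mertk, Tyro3, Havcr2 and Stab1. All 10 were found among the 19938 genes that probe sets with 1 gene symbol represented, each through 1 probe set. The cells were dendritic cells (DCs), the antigen-presenting cells that prime T cells, grown from bone marrow of C57BL/6 mice for 8 days in 200 ng/ml Flt3 ligand, the growth factor of the DC lineage. The mice were miR-142+/+ (wt) or miR-142-/- (ko), and the labels name no Cre driver or conditional allele. Sorting took B220-negative CD11c+ cells and separated CD4-equivalent DCs (CD172+ CD24low CD11b+) from CD8-equivalent DCs (CD172- CD24+ CD11blow), the culture counterparts of the cDC2 and cDC1 of tissues. Every group (4 in all) was represented by a single array, and the number of mice or cultures behind an array is not given in the labels. The comparisons asked how the receptors differed between genotypes and between DC subsets.

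Scavenger receptors are a loose class defined by what they bind rather than by descent. Class A members such as Msr1 and Marco carry collagen-like stalks and bind polyanions, class B members such as Cd36 and Scarb1 span the membrane at both ends and bind lipoproteins and fatty acids, and Stab1 is a large endocytic receptor of sinusoidal endothelium and macrophages. Dying cells expose phosphatidylserine, which is read directly by TIM family proteins such as Havcr2 and, through the bridging proteins Gas6 and protein S, by the receptor tyrosine kinases Tyro3, Axl and Mertk (the TAM family). In DCs, cDC1 are known for taking up dead cells and presenting their antigens on MHC class I, and TAM signalling is known as a brake on Toll-like receptor and interferon responses.

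The ko mice lack miR-142, a microRNA of blood cells whose arms are shown because they are what separates the genotypes. The mature sequences from RefSeq (GRCm38.p6, chromosome 11, plus strand) are printed with the seed, bases 2 to 8, in capitals, and the arms have different seeds. No transcript sequence was used here, so matches of these seeds to the receptor mRNAs were not analysed here.
mmu-miR-142a-5p, chr11:87756867-87756887: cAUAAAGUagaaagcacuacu
mmu-miR-142a-3p, chr11:87756903-87756925: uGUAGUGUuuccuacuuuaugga

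Promoters of the genes with the clearest patterns in these data are shown next: Havcr2 and Axl, which separated the subsets in opposite directions, and Cd36, the receptor at least 2-fold lower in ko CD8-equivalent DCs. RefSeq promoter sequences (GRCm38.p6) were matched for 8 of the 10 genes. Each runs from 250 bases before the start site to 50 after it, 5′ to 3′ on the strand of the gene, with the start site counted as position 1 and no position 0.
Havcr2, chr11:46454681-46454980, plus strand: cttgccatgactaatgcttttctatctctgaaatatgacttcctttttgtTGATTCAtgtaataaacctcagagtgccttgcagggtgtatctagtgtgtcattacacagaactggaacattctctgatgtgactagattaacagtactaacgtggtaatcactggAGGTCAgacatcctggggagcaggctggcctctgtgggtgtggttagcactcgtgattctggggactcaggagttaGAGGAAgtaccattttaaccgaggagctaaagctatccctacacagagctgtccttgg
Axl, chr7:25788684-25788983, minus strand: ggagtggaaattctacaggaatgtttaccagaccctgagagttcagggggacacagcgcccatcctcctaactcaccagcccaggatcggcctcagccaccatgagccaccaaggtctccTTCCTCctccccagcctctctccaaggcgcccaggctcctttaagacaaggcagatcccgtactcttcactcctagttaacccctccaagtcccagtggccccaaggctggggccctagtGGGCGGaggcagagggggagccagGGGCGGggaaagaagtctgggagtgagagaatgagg
Cd36, chr5:17835847-17836146, minus strand: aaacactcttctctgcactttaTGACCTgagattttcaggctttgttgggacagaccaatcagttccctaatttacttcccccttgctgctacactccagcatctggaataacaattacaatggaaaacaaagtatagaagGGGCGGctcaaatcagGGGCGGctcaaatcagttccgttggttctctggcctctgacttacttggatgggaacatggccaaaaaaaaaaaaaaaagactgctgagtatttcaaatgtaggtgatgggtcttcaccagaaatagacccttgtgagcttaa

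Capitals in these promoters mark 4 of the 8 short motifs searched on both strands: GAGGAA, a core bound by the myeloid factor PU.1, TGANTCA of AP-1, AGGTCA, a half-site of nuclear receptors, and GGGCGG, the GC box. Havcr2 held GAGGAA at position -8, AGGTCA at -84 and TGANTCA at -200. Axl held GC boxes at -10 and 15 and GAGGAA on the opposite strand at -130. Cd36 held GC boxes at -109 and -93, within a 16-base unit repeated in tandem, and AGGTCA on the opposite strand at -228. These matches are descriptions, since among 32851 promoters of the same length 28.3% held GAGGAA, 7.81% TGANTCA, 16.3% AGGTCA and 35.7% GGGCGG. The other motifs searched were GAAANNGAA (an interferon regulatory factor pair, 8.56% of promoters), GGAANNGAA (an ETS factor next to such a factor, 8.24%), TTCNNNGAA (STAT factors, 8.30%) and TATAAA (13.6%). Of the 8 receptor promoters, 3 held GGAANNGAA (Marco, Scarb2 and Stab1), and the remaining 3 motifs were found in 0.

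Values are log2 expression levels as deposited, made by RMA, and the log base was inferred from their range. A level was called low below the floor of 5.68, the median of all probe sets with 1 symbol, which is not a detection call. Levels of different genes are not set against each other, since probe sets differ in brightness. Array medians ran from 5.87 to 5.94, and 9774 to 9821 genes reached the floor on an array. Mir142 itself read 10.37 and 9.87 in wt and 4.92 and 4.79 in ko (CD4- and CD8-equivalent, in that order), although the labels do not say whether the probed part was deleted. Markers of all conventional DCs were at or above the floor on every array (7 of 7), as were 8 to 10 of 10 CD4-equivalent markers and 9 or 10 of 10 CD8-equivalent markers. T and NK cell markers were below the floor on every array (0 of 5), and Cd79b alone of 4 B cell markers was above it. The ko CD4-equivalent array stood apart: 11 of 12 neutrophil markers reached the floor there, against 5, 1 and 2 on the wt CD4-, wt CD8- and ko CD8-equivalent arrays.

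Of the 10 receptors, 5 reached the floor on all 4 arrays (Cd36, Scarb1, Scarb2, Axl and Havcr2), 2 on 2 arrays (Msr1 and Stab1) and 3 on none (Marco, Mertk and Tyro3). In bulk RNA of sorted cells, fewer cells expressing a gene and less RNA per cell cannot be told apart.

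**Figure D1:**
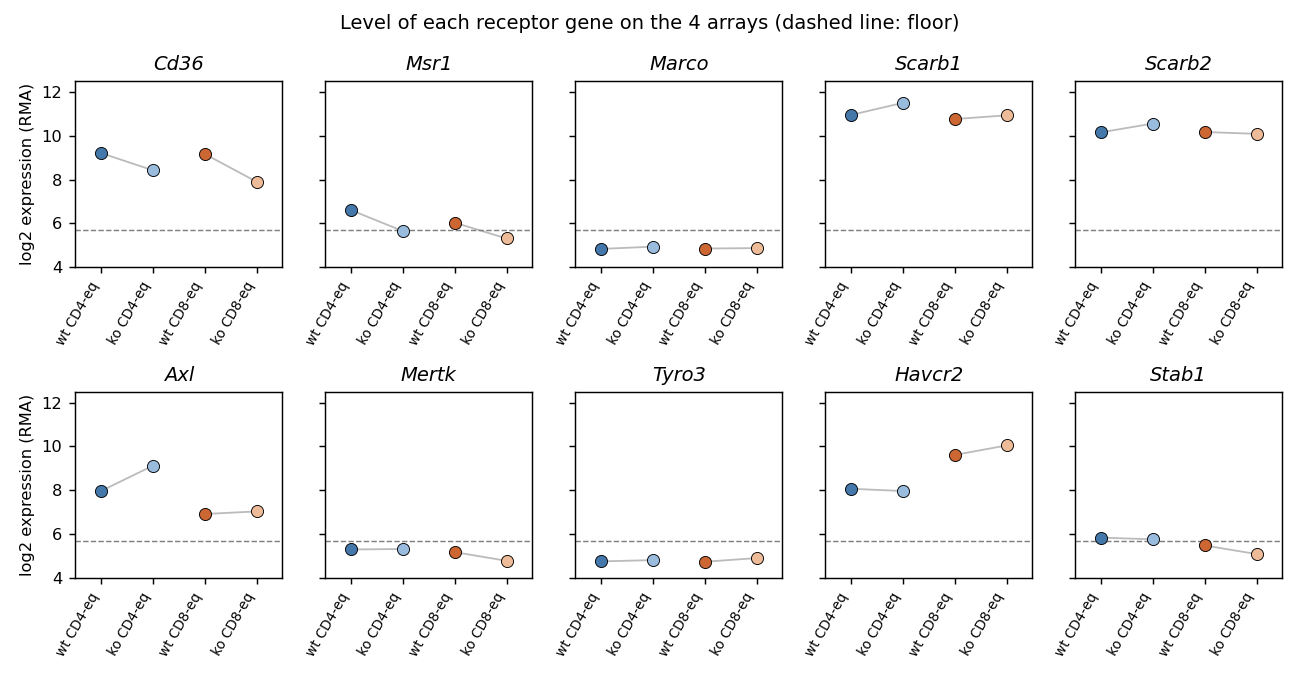
Log2 expression (y axis, RMA values) of each of the 10 receptor genes on the 4 arrays (x axis, wt and ko, CD4- and CD8-equivalent DCs), 1 point per array, with grey lines joining wt and ko of a subset and a dashed line at the floor of 5.68. Cd36 and Msr1 lie lower in ko in both subsets, Axl is higher and Havcr2 lower in CD4-equivalent DCs, and Marco, Mertk and Tyro3 stay below the floor.

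Effects common to both subsets were tested with limma on the 10239 genes at or above the floor on at least 1 array, in an additive model of genotype and subset with 1 residual degree of freedom. That degree of freedom is the interaction, the difference between the genotype differences of the subsets. limma combines it with a prior drawn from all fitted genes (3.98 degrees of freedom). The spread behind its p-values thus comes from these 4 arrays alone, without replicates, and could be technical. The 7 receptors that reached the floor entered the fit. For genotype, 0 of 7 passed an adjusted p of 0.05 in either direction, where 0.107% of all fitted genes were called higher and 0.0586% lower in ko. At an unadjusted limma p under 0.05, 2 receptors lay lower in ko (Cd36 and Msr1), as did 847 of the 10239 fitted genes (8.27%). For subset, 1 receptor was called higher in CD8-equivalent DCs (Havcr2), where 7.98% of all fitted genes were, and 1 lower (Axl), where 6.35% were. A difference between a pair of arrays is unreplicated and is given without a test, with 2-fold (1 on the log2 scale) as the size at which a gene is counted.

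Over all 10 receptors the median log2 difference, ko minus wt, was 0.04 between the CD4-equivalent and -0.03 between the CD8-equivalent arrays, against -0.007 and -0.0001 over all 19938 genes. In CD4-equivalent DCs 1 receptor passed 2-fold upward in ko (Axl) and 0 downward, as 1.39% and 0.952% of the genes compared did. In CD8-equivalent DCs 0 receptors passed it upward and 1 downward (Cd36), against 1.14% and 1.00% of the genes compared.

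**Figure D2:**
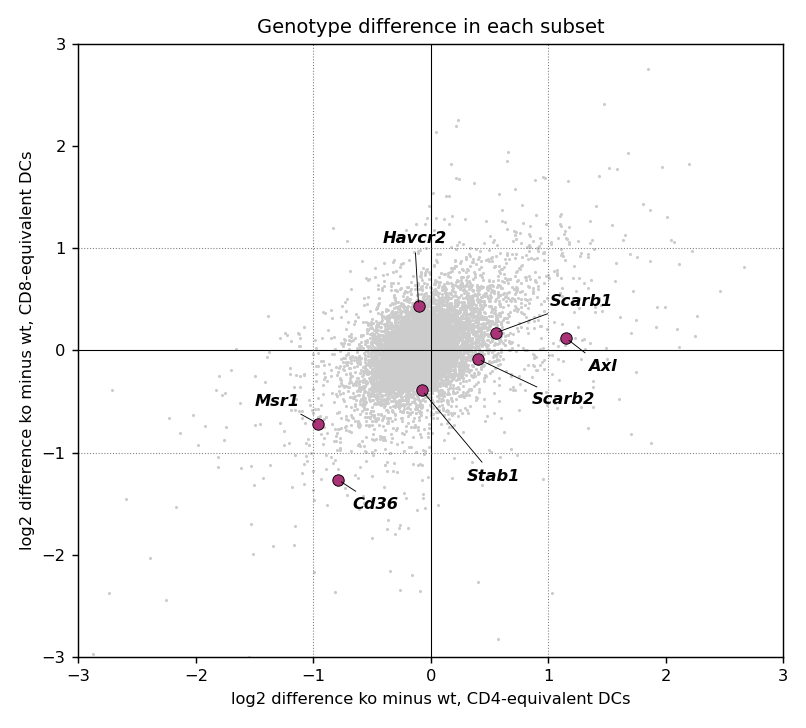
Log2 difference, ko minus wt, in CD4-equivalent (x axis) and CD8-equivalent DCs (y axis) for 10239 fitted genes (grey, 1 point per gene) and the 7 fitted receptors (purple), with dotted lines at 2-fold and 17 grey genes beyond the axes. Cd36 and Msr1 sit in the lower left quadrant, and Axl lies far to the right at a CD8-equivalent difference of 0.12.

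Cd36 was the class B receptor that separated the genotypes. Cd36 binds oxidised lipoproteins, long-chain fatty acids and thrombospondin, and works with alpha-v integrins in the capture of dying cells. It read 9.21 in wt and 8.42 in ko CD4-equivalent DCs, and 9.17 in wt and 7.90 in ko CD8-equivalent DCs. Both ko arrays lay below both wt arrays, and the wt subsets differed by only 0.04. Cd36 was thus 1.73-fold lower in ko among CD4-equivalent DCs and 2.41-fold lower among CD8-equivalent DCs. Of 9972 genes compared in CD8-equivalent DCs, 55 (0.552%, Cd36 included) had as large a difference in that direction, and in CD4-equivalent DCs 170 of 9978 (1.70%) did. The mean log2 difference was -1.03 ± 0.16 (SE) and did not pass limma's test over all genes (adjusted p = 0.080, lower in ko in 2 of 2 subsets). Whether Cd36 was called depended on the settings, and 2 of 6 alternatives called it. The adjusted p was 0.021 with a trended and robust prior and 0.035 with arrays centred on their medians. It was 0.12 after cyclic loess and 0.17 without a floor. Between the subsets, Cd36 was not called (mean difference -0.28 ± 0.16, adjusted p = 0.28).

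Values of the other class B members did not separate by genotype in this way. Scarb1, the receptor that exchanges cholesterol with high-density lipoprotein, read 10.95 in wt and 11.50 in ko CD4-equivalent DCs, and 10.76 in wt and 10.93 in ko CD8-equivalent DCs. Its highest value was on the ko CD4-equivalent array, and the other arrays spanned 0.19. The common genotype difference was 0.36 ± 0.14 (SE; limma adjusted p = 0.33) and the common subset difference -0.38 ± 0.14 (adjusted p = 0.14). Scarb2 is mainly a lysosomal membrane protein, which carries the enzyme glucocerebrosidase to lysosomes. It read 10.16 in wt and 10.56 in ko CD4-equivalent DCs, and 10.17 in wt and 10.09 in ko CD8-equivalent DCs. Apart from the ko CD4-equivalent array, its values lay within 0.08 of each other. Neither the genotype difference of Scarb2 (0.16 ± 0.16, adjusted p = 0.69) nor its subset difference (-0.23 ± 0.16, adjusted p = 0.37) passed limma's test.

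Of the class A receptors, Msr1 was the one measured above the floor. Msr1 encodes the macrophage receptor for acetylated lipoprotein and bacterial polyanions. It read 6.60 in wt and 5.64 in ko CD4-equivalent DCs, and 6.03 in wt and 5.31 in ko CD8-equivalent DCs. Both wt arrays lay above the floor and both ko arrays below it, so the ratio to ko may be understated. The differences were -0.96 (1.94-fold) and -0.72 (1.65-fold), which 109 of 9978 and 220 of 9972 compared genes matched or passed in that direction. The common difference was -0.84 ± 0.13 (SE), lower in ko in 2 of 2 subsets, and missed the threshold (limma adjusted p = 0.079). Of the 5 alternatives that fitted Msr1, 1 called it for genotype, with arrays centred on their medians (adjusted p = 0.028). Without a floor the adjusted p was 0.14. With centred arrays Msr1 was also called lower in CD8-equivalent DCs (-0.46, adjusted p = 0.046). That subset difference had an adjusted p of 0.076 in the fit described above, and no other alternative called it (up to 0.12). Marco, the class A receptor of marginal zone and lung macrophages, read from 4.83 to 4.93 and was below the floor on all 4 arrays.

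Stab1, the endocytic receptor for oxidised lipoprotein and phosphatidylserine, lay close to the floor. It read 5.84 in wt and 5.76 in ko CD4-equivalent DCs, just above it, and 5.48 in wt and 5.09 in ko CD8-equivalent DCs, below it. The subsets did not overlap, but the common difference of -0.52 ± 0.14 (SE) was not called by limma (adjusted p = 0.067), nor was that between genotypes (-0.23 ± 0.14, adjusted p = 0.48).

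Macrophage markers were read on the same arrays as Cd36 and Msr1. Of the 14 measured, 8 lay above 0 and 6 below it in CD4-equivalent DCs, ko minus wt, and 3 above and 11 below in CD8-equivalent DCs. Adgre1, which encodes a defining surface protein of mouse macrophages, read 11.49 in wt and 9.94 in ko CD4-equivalent DCs, and 8.09 in wt and 5.08 in ko CD8-equivalent DCs. Its ko values were thus lower in both subsets (common difference -2.28 ± 0.35 (SE), limma adjusted p = 0.079). C1qb and C1qc were higher in ko CD4-equivalent DCs, by 1.03 and 0.96, and lower in ko CD8-equivalent DCs, by -2.37 and -1.26. Apoe, Lyz2 and Ms4a7 differed by -0.35, -0.07 and 0.44 in CD4-equivalent DCs, ko minus wt. In CD8-equivalent DCs they differed by -2.16, -1.44 and -1.31. Over all 14 the mean log2 level was 8.11 in wt and 7.23 in ko CD8-equivalent DCs, and 11 and 7 of them reached the floor. In CD4-equivalent DCs it was 9.09 in wt and 9.21 in ko, with 11 at or above the floor on both. C1qa, Vsig4 and Timd4 were below the floor on all 4 arrays. Megakaryocytes and platelets also carry Cd36. Of 6 erythroid, megakaryocyte and platelet markers, Klf1, Epor, Pf4, Gp9 and Itga2b were below the floor on all 4 arrays, and Ppbp reached it on the ko CD8-equivalent array alone (6.78). Pf4 read 5.61 on both wt arrays, close to the floor, and 5.34 and 4.94 on the ko CD4- and CD8-equivalent arrays. The part of macrophage, megakaryocyte or platelet content in the Cd36 and Msr1 differences was not tested.

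Among the TAM kinases, Axl was expressed and differed between the subsets. Axl binds Gas6 and is the TAM member of DCs and inflamed macrophages. It read 7.97 in wt and 9.12 in ko CD4-equivalent DCs, and 6.91 in wt and 7.03 in ko CD8-equivalent DCs. Both CD4-equivalent arrays lay above both CD8-equivalent arrays, and the ko CD4-equivalent array was highest. In CD8-equivalent DCs Axl was lower than in their CD4-equivalent counterparts, 2.07-fold among wt arrays and 4.25-fold among ko arrays. The common subset difference was -1.57 ± 0.26 (SE; limma adjusted p = 0.024, lower in 2 of 2 genotypes). It missed the threshold when every gene entered the fit without a floor (adjusted p = 0.068). Within the wt arrays alone, which leave out the ko CD4-equivalent array, the difference was -1.05 without a test. Macrophage markers had lower means in the same subset, 8.11 against 9.09 in wt and 7.23 against 9.21 in ko, and their part in the Axl difference was not tested.

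The genotype difference of Axl was 1.15 (2.22-fold higher in ko) in CD4-equivalent DCs, and 97 of 9978 compared genes (0.972%) had as large a difference upward. In CD8-equivalent DCs it was 0.12 (1.09-fold). The genotype differences thus differed by -1.03, CD8- minus CD4-equivalent, which the design cannot test, and the common genotype difference of 0.64 ± 0.26 (SE) was not called (limma adjusted p = 0.34). On the same pair of CD4-equivalent arrays the mean level of 12 neutrophil markers was 5.97 in wt and 7.78 in ko, that of 7 plasmacytoid DC markers 8.66 and 9.69, and that of 10 CD8-equivalent markers 8.57 and 9.48. In the same order of lists, 10, 7 and 7 markers were higher in ko and 2, 0 and 3 lower. The 14 macrophage markers had nearly equal means there (9.09 and 9.21). The part of these cells in the Axl difference was not tested.

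Its TAM relatives were low throughout. Mertk, the TAM receptor of macrophages that clear apoptotic cells, read 5.29 in wt and 5.32 in ko CD4-equivalent DCs, and 5.17 in wt and 4.78 in ko CD8-equivalent DCs. Tyro3, best known from the nervous system and Sertoli cells, ranged from 4.73 to 4.90. Both were below the floor on all 4 arrays and entered no test, so the absence of a difference cannot be read from them.

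Havcr2 was the receptor called higher in CD8-equivalent DCs. Havcr2 encodes TIM-3, an inhibitory receptor of exhausted T cells that on DCs binds phosphatidylserine and, through it, dying cells. It read 8.07 in wt and 7.96 in ko CD4-equivalent DCs, and 9.61 in wt and 10.05 in ko CD8-equivalent DCs. The subsets did not overlap, and Havcr2 was higher in CD8-equivalent DCs, 2.92-fold among wt arrays and 4.24-fold among ko arrays. Of 9998 genes compared in wt, 78 (0.780%) had as large a difference in that direction, and 30 of 10118 (0.297%) did in ko. The common difference of 1.81 ± 0.17 (SE) passed limma's test (adjusted p = 0.0082, higher in 2 of 2 genotypes). It remained called under all 6 alternative settings, with adjusted p from 0.00070 to 0.029. T and NK cells can also express Havcr2. Their markers Cd3e, Cd3g, Cd3d, Ncr1 and Klrb1c lay below the floor on every array. The 7 plasmacytoid DC markers had higher means in the same subset, 10.50 against 8.66 in wt and 10.68 against 9.69 in ko. Between subsets, 6 of them were higher and 1 lower in CD8-equivalent DCs in each genotype. Plasmacytoid DCs carry B220. The sort took B220-negative cells, but all 7 of these markers were at or above the floor on both CD8-equivalent arrays. The part of T, NK or plasmacytoid cells in the Havcr2 difference was not tested. The genotype difference was not called (0.17 ± 0.17, adjusted p = 0.70), with values of -0.10 between CD4-equivalent and 0.43 between CD8-equivalent arrays.

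**Figure D3:**
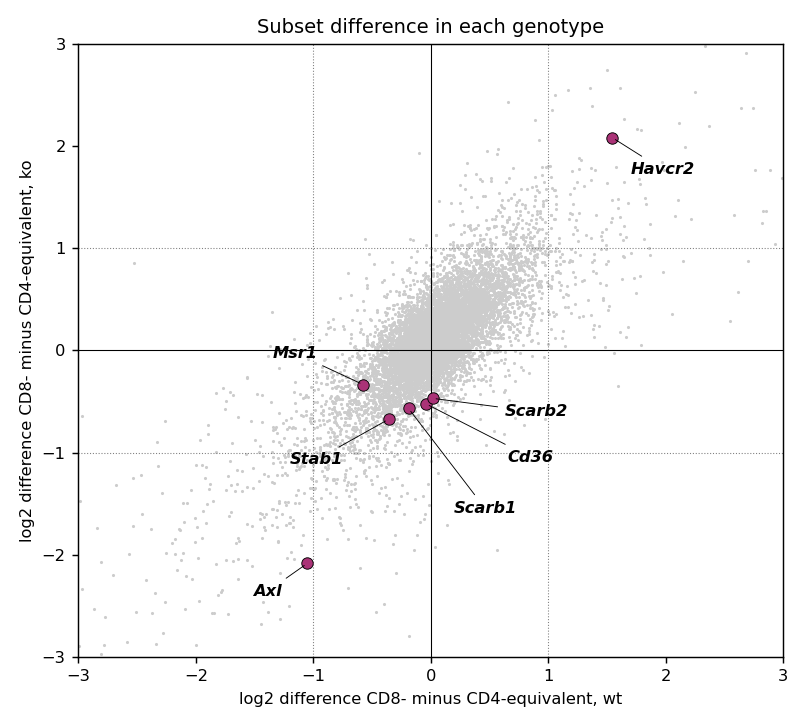
Log2 difference, CD8- minus CD4-equivalent DCs, in wt (x axis) and ko (y axis) for 10239 fitted genes (grey, 1 point per gene) and the 7 fitted receptors (purple), with dotted lines at 2-fold and 64 grey genes beyond the axes. Havcr2 lies at the upper right, Axl at the lower left, and the other 5 lie at or below 0 in ko within 1 unit.

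Between subsets, the median over all 10 receptors was -0.08 in wt and -0.50 in ko, CD8- minus CD4-equivalent, against 0.004 and 0.001 over all genes. In wt 1 receptor passed 2-fold upward and 1 downward, as 2.10% and 3.14% of compared genes did. In ko the same counts of 1 and 1 stood beside 3.39% and 3.90%. In both genotypes these were Havcr2 and Axl. In ko 8 of 10 receptors lay below 0, and in wt 7 did. Those counts include receptors below the floor on both arrays, namely Msr1, Marco and Mertk in ko and Mertk and Tyro3 in wt. These comparisons and the genotype comparisons use the same 4 arrays, so they are not independent of each other.

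The genes whose levels followed Axl and Havcr2 most closely were found by the Euclidean distance between the 4 values, each gene centred on its own mean, over 10238 other fitted genes and 4 arrays. Closest to Axl was Cd14, the lipopolysaccharide co-receptor and one of the macrophage markers used above (distance 0.27 on the log2 scale), at 8.40 and 9.20 in wt and ko CD4-equivalent DCs and 7.29 in both CD8-equivalent arrays. It was followed by Pilrb1, an activating immunoglobulin-like receptor (0.32), Vipr1, a receptor for vasoactive intestinal peptide (0.38), Abcd2, a peroxisomal fatty acid transporter (0.38), and Adgrg6, an adhesion G protein-coupled receptor (0.38). Closest to Havcr2 was Fads3, a fatty acid desaturase family member (0.30), at 8.70 and 8.62 in wt and ko CD4-equivalent DCs and 9.96 and 10.39 in CD8-equivalent DCs. Next came Tespa1, a signalling protein of developing T cells (0.34), the thromboxane receptor Tbxa2r (0.34), Rhobtb1 (0.37) and Sh2d5 (0.39). With 4 arrays such likeness is a description, and many genes split the subsets.

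The wider uptake pathway was followed in 97 listed genes, of which 90 were measured and 70 fitted. The lists were chosen with earlier results of these data known, so their counts are not independent of the data. For genotype 1 of 70 was called higher in ko and 0 lower, and for subset 3 were called higher and 16 lower in CD8-equivalent DCs. At least 2-fold differences between genotypes numbered 8 higher and 1 lower in CD4-equivalent DCs and 2 higher and 5 lower in CD8-equivalent DCs. Between subsets they numbered 3 higher and 10 lower in wt and 3 higher and 17 lower in ko. Over all fitted genes, 0.107% were called higher and 0.0586% lower in ko, and 7.98% higher and 6.35% lower in CD8-equivalent DCs. Of the genes compared, 1.39% and 0.952% were at least 2-fold higher and lower in ko CD4-equivalent DCs. In ko CD8-equivalent DCs 1.14% and 1.00% were. Between subsets the shares were 2.10% and 3.14% in wt and 3.39% and 3.90% in ko. Counts of single lists below are to be read against the same shares.

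Among ligands and bridging molecules, 11 of 13 were fitted. Pros1, which encodes the TAM ligand protein S, read 10.26 and 10.70 in wt and ko CD4-equivalent DCs and 9.33 and 9.25 in CD8-equivalent DCs. Pros1 was thus lower in CD8-equivalent DCs (-1.19 ± 0.16 (SE), limma adjusted p = 0.017), as was the TAM member Axl. The other TAM ligand, Gas6, lay below the floor on all 4 arrays (4.74 to 5.19). Mfge8, which bridges phosphatidylserine to integrins, read 8.22 to 8.47. Ceacam1, proposed as a partner of TIM-3, fell in CD8-equivalent DCs (-0.87 ± 0.12, adjusted p = 0.017), opposite to Havcr2. The complement component C1qb differed most between genotypes in this list, by 1.03 between the CD4-equivalent arrays and by -2.37 between the CD8-equivalent arrays, and passed neither test.

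Among the other dead-cell receptors, 2 were called higher and 3 lower in CD8-equivalent DCs, of 11 fitted. Havcr1 (TIM-1), the family relative of Havcr2, was higher there (1.66 ± 0.14, limma adjusted p = 0.0069), as was the integrin chain Itgb3 (1.51 ± 0.13, adjusted p = 0.0077). Havcr1 read 4.75 and 5.83 in wt and ko CD4-equivalent DCs and 6.58 and 7.32 in CD8-equivalent DCs, so it lay below the floor on the wt CD4-equivalent array. Itgb5, the chain that pairs with alpha-v in partnership with Cd36, was lower (-1.73 ± 0.23, adjusted p = 0.016), as were Cd300lb (-1.82 ± 0.14, adjusted p = 0.0060) and Sirpa (-2.34 ± 0.12, adjusted p = 0.0029). Sirpa encodes CD172a, on which the subsets were sorted. The common genotype difference, ko minus wt, was 0.91 for Havcr1, 0.80 for Itgb3 and 1.12 for Itgb5. It was -0.40 for Cd300lb and -0.10 for Sirpa. None was called (limma adjusted p = 0.079 for Havcr1 and 0.093 for Itgb3). With arrays centred on their medians Havcr1 and Itgb3 were called (adjusted p = 0.041 and 0.039), and Havcr1 also with the trended and robust prior (0.048). Of 6 alternatives, Havcr1 was thus called under 2 and Itgb3 under 1. Without a floor their adjusted p was 0.15 and 0.16. The actin-binding dead-cell receptor Clec9a, also among the 10 CD8-equivalent markers, showed the largest genotype difference of the list in CD4-equivalent DCs (3.07). Between CD8-equivalent arrays it differed by 0.26, where Itgb3 had the largest difference (0.95). Clec9a was not called for genotype (limma adjusted p = 0.32). Its difference between subsets was 3.11 in wt and 0.30 in ko, also without a call (adjusted p = 0.14). Of the 10 CD8-equivalent markers, Clec9a included, 7 read higher and 3 lower on the ko than on the wt CD4-equivalent array. Their mean level was 8.57 on that wt array and 9.48 on the ko array. How far cell content accounts for the Clec9a differences was not tested. Timd4, another TIM receptor, read 4.95 to 5.11, below the floor.

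Of the other scavenger and lipoprotein receptors, 4 of 15 measured genes were fitted and 2 were called lower in CD8-equivalent DCs. These were Lrp1, a large endocytic receptor (-3.04 ± 0.27, limma adjusted p = 0.0076), and the endosomal Cd68 (-1.23 ± 0.16, adjusted p = 0.016). Clec7a, the beta-glucan receptor Dectin-1, read 8.18 and 10.05 in wt and ko CD4-equivalent DCs and 7.15 and 6.24 in CD8-equivalent DCs, and was not called for subset (adjusted p = 0.066). Cxcl16, a membrane-bound chemokine that also binds oxidised lipoprotein, differed by 0.51 and -0.99 between genotypes in the same order of subsets. In the engulfment machinery, the phospholipid and cholesterol exporter Abca1 was the gene called for genotype (1.80 ± 0.13, adjusted p = 0.032, higher in 2 of 2 subsets), a call lost without the floor (adjusted p = 0.10). Abca1, the Rac activator Dock1 (-1.71 ± 0.19, adjusted p = 0.012) and the oxidase subunit Cybb (-1.39 ± 0.12, adjusted p = 0.0078) were called lower in CD8-equivalent DCs. The vesicle GTPase Rab27a was called higher there (0.73 ± 0.16, adjusted p = 0.046), a call that was lost after cyclic loess and without the floor (adjusted p = 0.052 and 0.085).

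In TAM signalling, Socs3, a feedback inhibitor that TAM receptors induce, was the 1 gene called of 8 fitted (-0.96 ± 0.17 for subset, limma adjusted p = 0.028). Its call was lost when its probe sets were averaged (-0.52, adjusted p = 0.057) and without the floor (adjusted p = 0.064). The phosphatase gene Ptpn11 had the largest genotype difference of that list in CD8-equivalent DCs, 0.31. Of 12 sterol and lipid genes fitted, 4 were called lower in CD8-equivalent DCs. Pparg, a fatty acid-sensing nuclear receptor that induces Cd36 in macrophages, was lower by -1.81 ± 0.16 (adjusted p = 0.0077) and differed by -0.39 and -0.88 between genotypes, without a call (adjusted p = 0.18). The others were its partner Rxra (-0.76 ± 0.13, adjusted p = 0.026), the sterol exporter Abcg1 (-0.61 ± 0.12, adjusted p = 0.034) and the lysosomal lipase gene Lipa (-0.97 ± 0.16, adjusted p = 0.024), whose call was lost without the floor (adjusted p = 0.053). The lipoprotein lipase gene Lpl differed, ko minus wt, by 0.40 between CD4-equivalent and -2.27 between CD8-equivalent arrays and passed neither test. Among 8 lysosomal genes that act alongside Scarb2, the regulator Tfeb was called lower in CD8-equivalent DCs (-0.57 ± 0.12, adjusted p = 0.040, but 0.051 without the floor). Lamp2 (0.23 in CD4-equivalent DCs) and the galactosidase gene Gla (-0.48 in CD8-equivalent DCs) had the largest genotype differences of that list. The protease gene Ctsd had its largest subset difference in ko (-0.71).

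**Figure D4:**
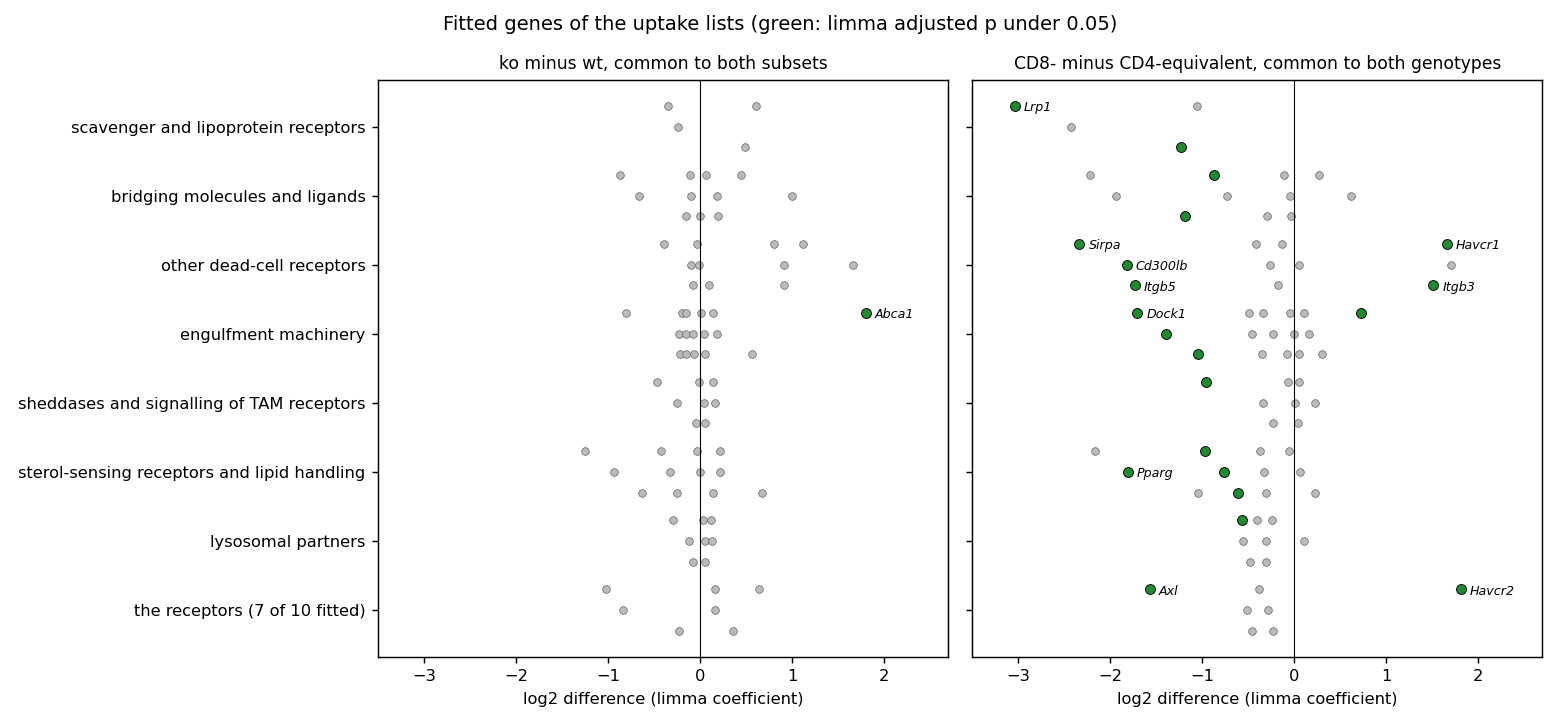
Limma coefficients (x axis, log2 difference) of the fitted genes of 7 uptake lists and of the 7 fitted receptors (rows, 1 point per gene, spread vertically for legibility), for genotype on the left and subset on the right, with genes called at an adjusted p of 0.05 in green. On the left Abca1 alone is called, and on the right Axl is called lower and Havcr2 higher among the receptors.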

How the data were processed

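Biotin-labelled RNA of 4 sorted DC samples was hybridised to Affymetrix arrays, 1 per group, with the standard protocol per the labels. The authors deposited 1 log2 value per probe set and array, and RMA and Partek are named, per the submitters' processing notes, without versions or order. RMA corrects background, quantile-normalises and summarises probes, and compresses low values, so differences near the floor are understated. Of 35399 deposited probe sets, 21789 had 1 gene symbol in the 2016 platform annotation, and the highest-mean probe set stood for a gene. By gene ID, 19856 of 19938 genes matched RefSeq (GRCm38.p6). From these values, differences between arrays were taken, and an additive model of genotype and subset was fitted with limma 3.58.1 in R 4.3.3 (lmFit and eBayes, two-sided, Benjamini-Hochberg over 10239 genes at or above the floor on any array, 3.98 prior degrees of freedom), and tested on simulated data. The receptors and lists were chosen with earlier results of these data known. All receptors are named, and of listed genes those called, those 2-fold different in both genotype comparisons, and each list's largest difference per comparison. Gas6, Mfge8, Timd4 and marker genes were named besides. Alternatives were cyclic loess, median centring, averaged probe sets, no floor, a floor at the 60th percentile and a trended, robust prior.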

Additional observations from a re-analysis of the deposited data

Results flagged for a closer look

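With 1 array per group, opposite signs of the genotype difference in the subsets mark the genes below, which are limited to the receptors and the pathway genes named by the rule, and none of these differences between subsets was tested. Among the receptors, the genotype difference of Scarb2 was 0.40 for CD4-equivalent cells and -0.08 for CD8-equivalent cells, so that the latter minus the former was -0.48. For Havcr2 the values were -0.10 and 0.43, and the latter minus the former was 0.54. Among pathway genes, the difference of the differences, CD8- minus CD4-equivalent, was -3.41 for C1qb, -2.78 for Clec7a, -2.67 for Lpl and -1.51 for Cxcl16. It was smaller for Pros1 (-0.51), Rab27a (0.49), Ctsd (-0.31) and Ceacam1 (-0.073).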

How the results depend on the processing

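Each count was recomputed under the alternatives given with the processing. No paired analysis was possible because each group holds 1 array and the labels give no replicate numbers. With arrays centred on their medians, 2 receptors were called lower in ko (Cd36 and Msr1, against 0), 2 were called lower in CD8-equivalent DCs (Axl and Msr1, against 1), and 4 pathway genes were called higher in ko (against 1). With a trended and robust prior, 1 receptor was called lower in ko (Cd36) and 4 pathway genes were called higher. A floor at the 60th percentile gave 2 pathway genes called higher in ko. Without a floor, 0 receptors were called lower in CD8-equivalent DCs and 0 pathway genes were called higher in ko. The other 120 recomputed counts lay within 1.5 times the reported ones. Over all genes, calls for genotype numbered 17 as reported, 13 after cyclic loess, 240 with centred arrays, 3 without a floor, 126 with the higher floor and 307 with the trended prior, so genotype calls rest on the settings. Calls for subset numbered 1467, and 946 without a floor. Cyclic loess turned the sign of the genotype difference of Ceacam1, from near 0 to 0.041 (adjusted p = 0.90). The cause of these changes was not tested. The number of genes fitted also changed, to 19938 without a floor and 8331 with the higher one. Depth in the sense of counts does not apply, and 3 receptors below the floor could show no difference.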

Other observations

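The immediate neighbours of the receptor genes in RefSeq order were read as values, and these were chosen after their values were seen. Next to Axl on chromosome 7 lies Cyp2s1, a cytochrome P450 gene known to be induced through the aryl hydrocarbon receptor. Cyp2s1 read 6.25 in wt and 7.90 in ko CD4-equivalent DCs and 6.59 in wt and 7.72 in ko CD8-equivalent DCs, higher in ko in 2 of 2 subsets. Its common genotype difference of 1.39 ± 0.17 (SE) missed limma's threshold (adjusted p = 0.061). It differed from Axl in showing almost no subset difference (0.08 ± 0.17, adjusted p = 0.78). The neighbour of Axl on the other side, Hnrnpul1, read 11.41 to 11.60. Next to Stab1 on chromosome 14, Nt5dc2 was called higher in CD8-equivalent DCs (1.23 ± 0.12, adjusted p = 0.010), where Stab1 read lowest.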
